A study of Mus musculus with 15 samples.

Results

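Tumours injected with 2 innate immune agonists at once, BO-112 and DMXAA, were compared with tumours injected with vehicle. The comparison holds 4 tumours given both agents and 3 given vehicle, which are 7 of the 15 sequenced tumours, and it covers all 17712 measured genes. Samples were assigned by their treatment labels alone. All tumours were MC38, a mouse colon carcinoma line, implanted under the skin of the right flank of C57BL/6 mice and treated by injection into the tumour once they measured about 5 mm. The vehicle was 100 µL of PBS with 5% DMSO and 5% glucose. The combined treatment held 50 µg of BO-112 and 100 µg of DMXAA in 100 µL. Tumours given BO-112 alone (4, at 50 µg) or DMXAA alone (4, at 100 µg) served as reference levels. Whole tumours were collected 24 h after the injection and their mRNA was sequenced. The labels call the samples biological replicates and give no sex, age or batch.

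BO-112 is a complex of poly I:C, a synthetic double-stranded RNA, with a polycationic carrier. Double-stranded RNA is read in the endosome by TLR3 and in the cytosol by RIG-I and MDA5, whereas DMXAA binds mouse STING, the adaptor of cytosolic DNA sensing. Both routes end in the kinase TBK1, in the factors IRF3 and NF-kB, and in type I interferon, which acts through a complex that holds IRF9 on genes that carry an interferon-stimulated response element. DMXAA is also known as an agent that damages tumour blood vessels.

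Levels are given in CPM, the reads of a gene scaled to a fixed library size, in the order of tumours 1 to 3 for vehicle and 1 to 4 for both agents. They are not divided by gene length, so levels of different genes are not compared. Where 2 series of levels stand side by side, vehicle comes first. Changes are log2 fold changes of both agents over vehicle, written with their standard error, from limma with 4 group means fitted to all 15 libraries. Every adjusted p below is limma's with Benjamini-Hochberg adjustment over all genes. A gene is called changed where that value is under 0.05. Each call was refitted with each of the 15 libraries left out in turn.

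With both agents, 441 genes were called higher, 2.49% of those measured, and 32 were called lower, 0.181%. Of these, 303 were higher and 19 lower by at least 2-fold. The ranges of the 2 groups did not overlap for 440 of the 441 higher and all 32 lower genes, against 16.5% of all measured genes, so the levels of called genes below lie apart unless stated otherwise. The median log2 fold change over all genes was -0.01, and 48.7% of genes had a positive value. All 32 lower genes and 404 of the 441 higher ones code for proteins. The count depended on single libraries. It was 246 without vehicle 3, 287 without vehicle 1, 284 without tumour 1 and 300 without tumour 2 given both agents, and 768 without DMXAA 2, which enters through the shared estimate of spread.

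**Figure D1:**
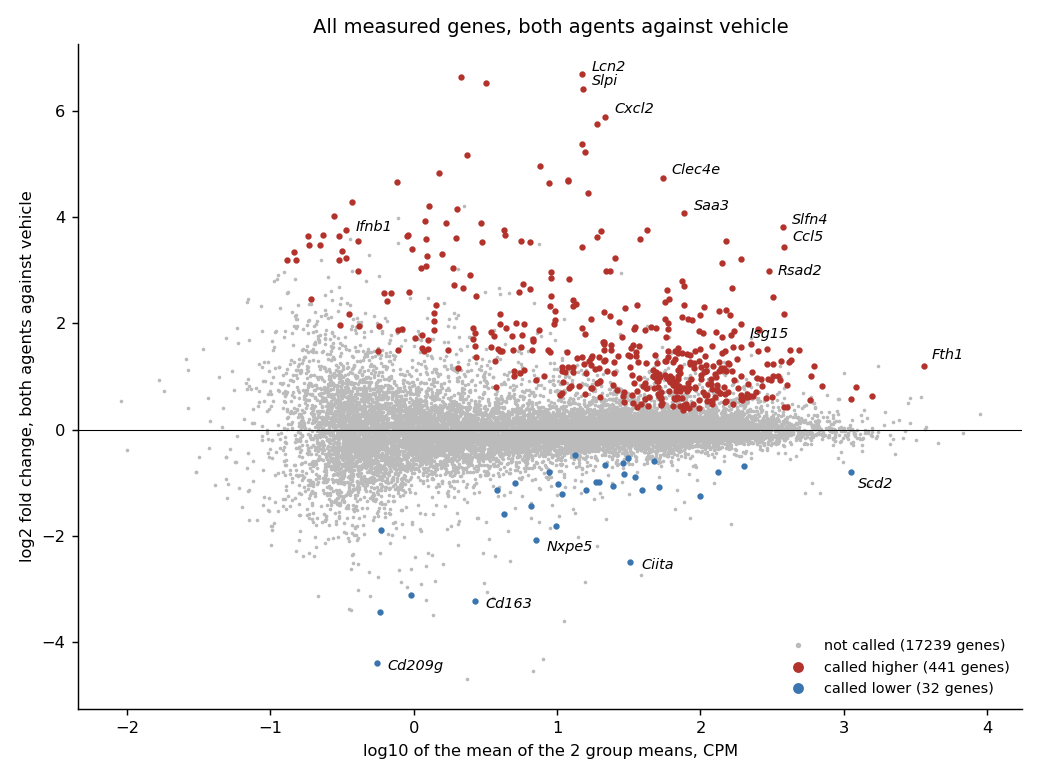
Log2 fold change of each measured gene between tumours given both agents (n = 4) and vehicle (n = 3), against the log10 of the mean of the 2 group means in CPM. Red points are the 441 genes called higher, blue points the 32 called lower and grey points the rest. Red points reach the largest changes, up to 6.69 for Lcn2, whereas blue points are few and lie nearer to 0 than the leading red ones.

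The libraries of the comparison held 13073772 to 15737746 reads for vehicle and 12725316 to 16133547 for both agents. Their median correlation with their own group lay between 0.976 and 0.982, and DMXAA 2 had the lowest of all libraries, 0.933. Vehicle 2 stood apart in skeletal muscle markers, with Acta1, the muscle actin, at 0.925, 57.9 and 5.57 CPM in the vehicle tumours and 0.232, 0.307, 0.439 and 2.20 CPM with both agents. Among the reference tumours, Acta1 was higher still in BO-112 1 (163 CPM), DMXAA 1 (291 CPM) and DMXAA 3 (194 CPM). The 23 measured muscle markers summed to 49.04 to 311 CPM in vehicle and 36.8 to 46.5 CPM in treated tumours. Vehicle 3 was the lowest of the vehicle tumours for 49 of 53 interferon-stimulated genes, against 38.1% of all genes. The leukocyte marker Ptprc stood at 213, 248 and 145 CPM in vehicle and 269, 306, 257 and 349 CPM in treated tumours (log2 fold change 0.57 ± 0.19, adjusted p = 0.174). None of 5 measured carcinoma markers was called, and they summed to 31.2 to 87.5 CPM in vehicle and 12.3 to 29.9 CPM in treated tumours. Most of that sum was Cdh1, the epithelial cadherin, at 25.6, 27.4 and 82.6 CPM and 9.11, 25.9, 25.8 and 12.9 CPM (log2 fold change -1.20 ± 0.49, adjusted p = 0.324). Epcam, an epithelial adhesion molecule, had 1.85, 1.21 and 2.67 CPM and 0, 0.614, 0.439 and 0.276 CPM, ranges that lay apart (-2.91 ± 0.84, adjusted p = 0.0911). It was called with a pseudocount of 2 reads, with array quality weights and without DMXAA 2. Krt19, an epithelial keratin, did not pass 0.827 CPM in any tumour of the comparison. The keratins Krt8 and Krt18 were not analysed here. In whole tumours, a change in the number of cells of a type and a change in RNA per cell cannot be told apart.

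The interferon-stimulated antiviral genes held the most called members of any list. Of 53 measured, 39 were called higher and none lower, with a median log2 fold change of 1.45, and all 53 had a positive value. The count was 36 without vehicle 3 and reached 48 without DMXAA 2. Isg15, a ubiquitin-like modifier, stood at 69.1, 96.98 and 64.2 CPM in vehicle tumours and 365, 354, 257 and 245 CPM with both agents. Every treated tumour lay far above the highest vehicle tumour, and the change was 1.99 ± 0.20 (adjusted p = 0.000125). Oasl1, an oligoadenylate synthetase-like protein, went from 31.5, 35.8 and 19.6 CPM to 294, 324, 175 and 225 CPM, a change of 3.14 ± 0.29 (adjusted p = 8.30e-05). Ifit1, which binds viral RNA ends, stood at 118, 125 and 81.9 CPM and 469.7, 472, 345 and 314 CPM (1.88 ± 0.19). Rsad2, the antiviral enzyme viperin, stood at 68.7, 89.5 and 46.4 CPM and 603, 669.7, 357 and 505 CPM (2.98 ± 0.31). For each of these genes tumour 3 or tumour 4 was the lowest of the treated tumours and still lay above all vehicle tumours.

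Other members showed the same separation. Slfn4, a Schlafen family member of myeloid cells, had the largest change of the list, from 53.9, 53.8 and 40.8 CPM to 810.1, 722, 471 and 809.8 CPM (3.81 ± 0.49). Cmpk2, a mitochondrial nucleotide kinase encoded beside Rsad2, changed by 2.30 ± 0.26, and Rtp4, a chaperone that restrains antiviral responses, by 1.40 ± 0.15. Ms4a4c, a membrane protein of myeloid cells, stood at 53.2, 72.7 and 34.9 CPM and 272, 292, 201 and 227 CPM (2.26 ± 0.21). Trim30d, of the TRIM family, rose by 1.45 ± 0.16. All of these calls held in each of the 15 refits. Several of these genes belong to families of near-identical copies (Oas1, Ifit, Slfn, Trim30, the Ifi200 genes and the H2 genes), and the counting may have split reads between copies, so the value of a single copy is uncertain.

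Promoters of 3 of these genes are shown because they hold several copies of the motif through which type I interferon acts. The search used the response element core GAAANNGAA on both strands in RefSeq windows of GRCm38.p6 from 250 bases before to 50 bases after each start. Capitals mark the matches, which overlap where they run together. Each stretch is written 5′ to 3′ on the gene's strand.
Isg15, chr4:156200826-156200945, minus strand: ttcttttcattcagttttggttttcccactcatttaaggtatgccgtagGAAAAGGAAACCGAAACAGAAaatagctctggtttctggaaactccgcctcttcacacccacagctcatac
Ifit1, chr19:34640737-34640856, plus strand: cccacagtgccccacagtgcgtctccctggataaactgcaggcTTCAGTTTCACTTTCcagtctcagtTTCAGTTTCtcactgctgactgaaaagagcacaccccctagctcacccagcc
Oas1g, chr5:120887614-120887733, minus strand: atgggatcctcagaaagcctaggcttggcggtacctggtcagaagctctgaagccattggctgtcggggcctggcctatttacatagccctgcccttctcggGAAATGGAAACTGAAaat
The Isg15 and Ifit1 stretches hold 3 matches each and the Oas1g stretch 2, on the strand opposite to the gene in Ifit1. Windows were found for 11863 measured genes. A match was present in 23.8% of 281 windows of genes called higher by at least 2-fold, in 14.3% of 42 windows of genes called lower, and in 7.51% of 15091 windows of all measured genes. A gene can have several windows. Counted by gene, the shares were 25.9%, 16% (4 of 25 lower genes) and 9.02%. A match describes the letters of the window and does not show that a factor was bound.

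Ifnb1, which encodes interferon beta, was the 1 type I interferon gene with a value here. It stood at 0.142, 0.0605 and 0.119 CPM in vehicle tumours and 1.62, 2.27, 1.17 and 1.65 CPM with both agents, with no overlap, a change of 3.64 ± 0.42 (adjusted p = 0.000181). The vehicle levels of Ifnb1 rest on few reads, so the size of its change is uncertain. Ifng, the type II interferon of T and NK cells, had 1.28, 2.54 and 0.0593 CPM and 0.309, 0.860, 0.950 and 1.17 CPM, groups that overlapped, and was not called (0.22 ± 0.90, adjusted p = 0.990). Without vehicle 3, the lowest vehicle tumour, its value turned negative. On the receptor side, 2 of 17 receptor and JAK-STAT genes were called, and both belong to the factor that interferon activates. Irf9, its DNA-binding subunit, stood at 63.7, 75.7 and 44.4 CPM and 109.8, 102, 95.3 and 90.4 CPM (0.73 ± 0.14, adjusted p = 0.0103). Stat2, its partner, went from 212, 256 and 117 CPM to 489.8, 506, 350.5 and 427 CPM (1.25 ± 0.28, adjusted p = 0.0242), a call that was lost in 5 of the 15 refits, with an adjusted p of 0.159 without vehicle 3. Irf7, the interferon-induced factor that drives interferon genes, stood at 136, 197 and 88.96 CPM and 713, 767, 424 and 585 CPM (2.18 ± 0.26, adjusted p = 0.000256).

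Sensors of double-stranded RNA were among the raised genes, and on the DNA side a family of interferon-inducible genes was, but not STING. Of 15 genes of double-stranded RNA sensing, 8 were called higher and none lower (median 0.94), and of 18 genes of DNA sensing, 8 higher and none lower (median 0.87). Tlr3, which senses such RNA in endosomes, stood at 36.2, 37.05 and 22.95 CPM and 66.6, 68.1, 58.8 and 58.1 CPM (1.0003 ± 0.16, adjusted p = 0.00243). Dhx58, the helicase LGP2 that assists MDA5, changed by 1.42 ± 0.18, and Trim25, a ligase that activates RIG-I, by 0.97 ± 0.14. Ifih1, which encodes MDA5, changed by 1.19 ± 0.17 and Ddx58, which encodes RIG-I, by 0.94 ± 0.16 (adjusted p = 0.000834 and 0.00437), both named after their values were seen. On the DNA side the 8 called genes were all of the interferon-inducible Ifi200 family. Ifi205 stood at 22.8, 23.6 and 11.1 CPM and 143, 169, 104 and 102 CPM (2.80 ± 0.32). Ifi204 stood at 72.5, 92.9 and 56.4 CPM and 270.3, 285, 193 and 265 CPM (1.79 ± 0.20). Tmem173, which encodes STING, the target of DMXAA, was not among them, with 70.5, 80.9 and 57.6 CPM in vehicle and 46.6, 61.9, 54.97 and 51.5 CPM in treated tumours (-0.37 ± 0.15, adjusted p = 0.327). Tlr2, a receptor for bacterial lipopeptides, changed by 1.40 ± 0.17, and Cd14, a coreceptor of Toll-like receptors, stood at 17.7, 25.6 and 15.8 CPM and 92.7, 63.2, 40.9 and 118 CPM (1.92 ± 0.32).

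Inhibitors of these pathways rose as well. Of 23 listed brakes, 11 were called higher and none lower (median 0.50), a count that was 6 without vehicle 3 and 7 without treated tumour 1 or 2. Usp18, which removes ISG15 and blocks the interferon receptor, stood at 28.8, 38.02 and 25.5 CPM and 155, 164, 113 and 95.6 CPM (2.08 ± 0.18, adjusted p = 8.30e-05), 1 of the 4 smallest adjusted p-values, with those of Oasl1, Ms4a4c and Htra4. Il1rn, the interleukin 1 receptor antagonist, went from 33.2, 58.3 and 24.9 CPM to 399, 412, 226 and 341 CPM (3.20 ± 0.34). Nfkbia, the inhibitor that holds NF-kB in the cytosol, stood at 123, 119 and 108 CPM and 209, 255, 238 and 197 CPM (0.94 ± 0.12), and Tnfaip3, the deubiquitinase A20, at 42.6, 34.4 and 35.4 CPM and 99.1, 115, 73.5 and 93.3 CPM (1.33 ± 0.21). Dusp1, a phosphatase of MAP kinases, changed by 2.34 ± 0.36. Among 16 genes of NF-kB itself, the 3 called members were Nfkbia, Tnfaip3 and Nfkbiz. Nfkbiz encodes a nuclear protein of the same family as Nfkbia and is not counted here as a brake. Its call (0.89 ± 0.22, adjusted p = 0.0427) was lost in 10 of the 15 refits, with an adjusted p of 0.260 without vehicle 3.

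Chemokine genes held some of the largest changes. Of 10 neutrophil chemokines and growth factors, 4 were called higher and none lower (median 2.38). Cxcl2, a ligand of the neutrophil receptor CXCR2, stood at 0.925, 0.484 and 0.297 CPM and 54.7, 11.8, 20.1 and 83.4 CPM, a change of 5.89 ± 0.91 (adjusted p = 0.00164). Cxcl3, a close relative, stood at 0.285, 1.15 and 0.356 CPM and 36.97, 9.21, 11.04 and 59.2 CPM (5.37 ± 0.92). Cxcl5 stood at 0.712, 0.545 and 0.356 CPM and 4.55, 5.96, 8.48 and 13.2 CPM (3.76 ± 0.65). For Cxcl2 and Cxcl3, treated tumours 1 and 4 lay far above tumours 2 and 3, and all 4 lay above the vehicle range. Cxcl1 was more even, at 8.68, 6.96 and 6.70 CPM and 48.2, 25.4, 34.7 and 33.3 CPM (2.21 ± 0.24, adjusted p = 0.000156). The calls of Cxcl2, Cxcl3 and Cxcl5 held in all 15 refits but not under limma-voom on the recovered reads, where their adjusted p was 0.174, 0.175 and 0.116.

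Promoters of 3 raised NF-kB target genes are shown with the NF-kB site core GGANNTTCC in capitals, searched on both strands in the same RefSeq windows of GRCm38.p6 and printed 5′ to 3′ on the gene's strand.
Nfkbia, chr12:55492668-55492825, minus strand: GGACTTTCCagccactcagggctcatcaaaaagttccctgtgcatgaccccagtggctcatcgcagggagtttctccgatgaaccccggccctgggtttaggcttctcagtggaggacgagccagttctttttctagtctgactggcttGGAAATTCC
Cxcl2, chr5:90903748-90903867, plus strand: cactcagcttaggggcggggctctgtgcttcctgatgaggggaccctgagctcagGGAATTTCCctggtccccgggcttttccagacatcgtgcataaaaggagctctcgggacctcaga
Cxcl3, chr5:90785974-90786093, plus strand: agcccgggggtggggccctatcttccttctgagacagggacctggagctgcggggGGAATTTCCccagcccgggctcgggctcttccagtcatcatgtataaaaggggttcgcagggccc
The Nfkbia stretch holds 2 matches, and the chemokine stretches hold 1 each with the same letters. This core was found in 11.03% of windows of genes called higher by at least 2-fold, 4.76% of those of genes called lower and 4.67% of all windows. A further core was searched in the same way, that of the gamma-activated site (TTCNNNGAA). Its shares were closer together, at 9.61%, 4.76% and 6.90% in the same order. Matches of the interferon and NF-kB cores overlapped in 0 of the 281 windows of genes called higher by at least 2-fold.

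Among 14 CC chemokines, which attract monocytes and lymphocytes, 7 were called higher and none lower (median 1.49). Ccl5, an attractant of T cells and monocytes, stood at 67.05, 90.2 and 36.2 CPM and 989, 758, 364 and 674 CPM (3.44 ± 0.36, adjusted p = 0.000147). Ccl4, an attractant of monocytes and NK cells, stood at 4.98, 11.1 and 1.84 CPM and 45.2, 36.96, 39.8 and 56.3 CPM (3.22 ± 0.40). Ccl12, a monocyte attractant, stood at 20.9, 27.7 and 27.9 CPM and 113, 116, 79.2 and 49.7 CPM (1.75 ± 0.28). Treated tumour 3 was the lowest of the 4 for Ccl5 and tumour 4 for Ccl12, and each still lay above the vehicle range. Ccl24 and Ccl17, named after their values were seen, had large negative values without a call, and their ranges overlapped. Ccl24, an eosinophil attractant, had 1.28, 3.63 and 40.5 CPM and 0.154, 2.27, 0.439 and 0 CPM (-4.31 ± 1.33, adjusted p = 0.125). Ccl17, a ligand of CCR4, had 3.84, 2.36 and 12.1 CPM and 0.386, 3.50, 0.658 and 0.689 CPM (-2.37 ± 0.98, adjusted p = 0.333). Of the interferon-induced ligands of CXCR3, which attract T cells, Cxcl11 rose from 4.56, 6.36 and 0.415 CPM to 30.4, 34.01, 21.1 and 19.5 CPM (3.44 ± 0.63, adjusted p = 0.00608), a call lost in a fit to the 2 groups alone (adjusted p = 0.12). Cxcl10 stood at 317, 411 and 105 CPM and 772, 859, 663 and 464 CPM (1.49 ± 0.37, adjusted p = 0.0415), but its call was lost in 11 of the 15 refits, with an adjusted p of 0.172 without vehicle 3. Cxcl9, the ligand most tied to interferon gamma, had 269, 413 and 41.99 CPM and 284, 377, 181 and 212 CPM and was not called (0.60 ± 0.56, adjusted p = 0.854). The wide vehicle range of the 3 CXCR3 ligands came with vehicle 3 as the lowest tumour for each. Cxcl13, a B cell attractant, stood at 0.498, 0.605 and 0.119 CPM and 5.48, 11.8, 3.73 and 1.31 CPM (3.53 ± 0.68), a call lost without vehicle 3 (adjusted p = 0.0723) and under limma-voom (adjusted p = 0.147).

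The cytokine families were counted with their receptors and inhibitors. Most of these genes were not called, but the called shares, 15.4% to 25%, exceeded the 2.49% of all genes called higher. The shares are not independent, since Il27, given below, was a called member of both the interleukin 6 and the interleukin 12 lists. The interleukin 1 family calls included Il18bp, an inhibitor, and the antagonist Il1rn, which was also counted among the brakes. The counts were 3 of 13 in the interleukin 1 family, 2 of 13 in the interleukin 6 family, 2 of 8 in the interleukin 12 family and 5 of 29 in the TNF superfamily, all higher, with medians of 1.12, 0.21, 0.80 and 0.22. With 1 library left out these counts ran from 2 to 5, 1 to 4, 1 to 2 and 1 to 7, the last lowest without vehicle 3. Il6, an inducer of the acute phase, stood at 0.498, 0.363 and 0.593 CPM and 3.16, 3.19, 3.07 and 3.86 CPM (2.72 ± 0.44, adjusted p = 0.00239). Il12b, a subunit of interleukin 12 and interleukin 23, stood at 4.63, 2.24 and 3.44 CPM and 16.9, 20.1, 12.1 and 14.4 CPM (2.23 ± 0.36, adjusted p = 0.00218). Tnf stood at 7.05, 11.6 and 3.02 CPM and 25.9, 28.3, 30.4 and 23.5 CPM (2.09 ± 0.34, adjusted p = 0.00257). These 3 genes varied little among the treated tumours. Il15, which sustains NK cells and memory T cells, changed by 1.36 ± 0.21. Il1f9, an interleukin 36 cytokine, stood at 0.142, 0.121 and 0 CPM and 5.02, 1.84, 1.24 and 10.3 CPM (5.17 ± 0.92), with treated tumours 1 and 4 again the highest. Its call did not hold under limma-voom (adjusted p = 0.217). Il1b, the main interleukin 1, was not called, at 11.3, 18.04 and 5.04 CPM and 27.7, 25.97, 19.01 and 54.4 CPM (1.54 ± 0.42, adjusted p = 0.0716), although its ranges did not overlap. Tnfsf15, a TNF family ligand, changed by 2.52 ± 0.47, a call lost without vehicle 3 (adjusted p = 0.0527).

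**Figure D2:**
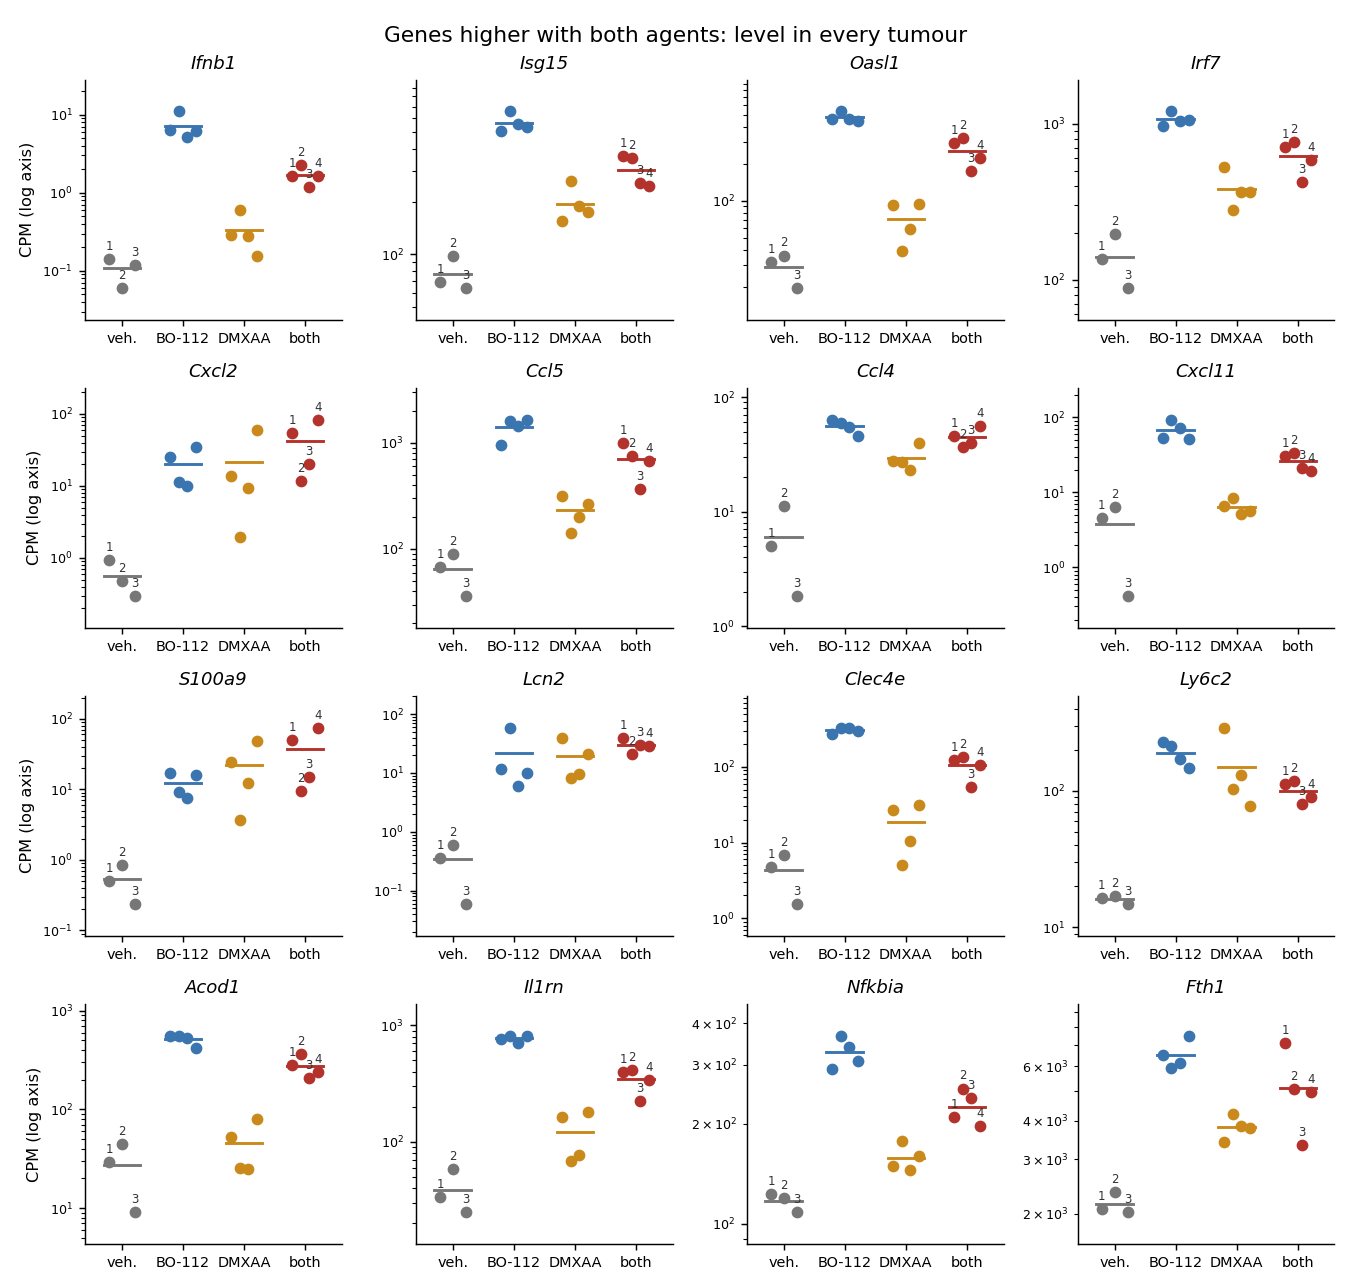
Level of 16 raised genes in each of the 15 tumours, in CPM on log axes, by group, with bars at the group means and tumour numbers beside vehicle and both-agent points. All 4 tumours given both agents lie above all 3 vehicle tumours for each gene shown; for Cxcl2 and S100a9 tumours 1 and 4 lie well above tumours 2 and 3.

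Neutrophil markers had the highest median change of the cell type lists. Of 29 measured, 16 were called higher and none lower, with a median log2 fold change of 3.24. Lcn2, a secreted iron-chelator binding protein, had the largest change of all named genes, from 0.356, 0.605 and 0.0593 CPM to 39.1, 20.8, 29.6 and 29.3 CPM (6.69 ± 0.75, adjusted p = 0.000166). Slpi, an inhibitor of neutrophil elastase, went from 0.142, 0.484 and 0.297 CPM to 37.1, 23.3, 11.7 and 48.2 CPM (6.41 ± 0.77). S100a9, a subunit of calprotectin, the main cytosolic protein of neutrophils, stood at 0.498, 0.848 and 0.237 CPM and 49.4, 9.52, 14.8 and 74.9 CPM (5.75 ± 0.79). S100a8, the other subunit, stood at 0.641, 1.03 and 0.119 CPM and 23.6, 5.53, 4.31 and 34.9 CPM (4.65 ± 0.81). Stfa2l1, a stefin of mouse neutrophils, was nearly absent in vehicle, at 0, 0.0605 and 0 CPM, against 1.47, 0.368, 0.877 and 3.31 CPM. Ly6g, the neutrophil surface marker, had no read in any vehicle tumour and 0.386, 0.123, 0.292 and 0.689 CPM with both agents. The treated mean was 5.89 times a floor of 3 reads over the vehicle group, 0.0633 CPM. That ratio leaves out the spread between tumours. Its call (adjusted p = 0.0490) was lost in 10 of the 15 refits, with an adjusted p of 0.169 without vehicle 3. Gm5483, a stefin gene named after its values were seen, also had no vehicle read, and had 4.94, 0.737, 3.07 and 8.47 CPM with both agents. Its treated mean was 68.1 times the same floor, with treated tumour 2 far below that mean (adjusted p = 0.000410, and 0.0885 under limma-voom). Not every defining marker was called. Cxcr2, the neutrophil chemokine receptor, had 0.712, 0.363 and 2.02 CPM and 9.96, 1.53, 2.78 and 13.7 CPM (2.55 ± 0.85, adjusted p = 0.173), and Csf3r, the receptor for G-CSF, 28.5, 36.99 and 24.5 CPM and 59.3, 56.2, 43.4 and 81.1 CPM (0.98 ± 0.34, adjusted p = 0.189).

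The neutrophil calls depended on the model more than the interferon calls did. Under limma-voom on the recovered reads, 5 of the 29 markers and 39 of the 53 interferon-stimulated genes were called higher. The adjusted p under limma-voom was 0.0622 for Lcn2, 0.105 for Slpi, 0.147 for S100a9 and 0.142 for S100a8. The spread over treated tumours was also wider. Tumours 1 and 4 both lay above tumours 2 and 3 for 18 of 29 neutrophil markers, 62.1%, against 13.6% of all genes, an order chosen after the values were seen. The share was 87.5% among 8 red cell and platelet markers, 52.2% among muscle markers, 50.00% among genes of cholesterol and fatty acid synthesis and 5.66% among interferon-stimulated genes. The median deviation of neutrophil markers from a gene's own mean over the 4 tumours was 0.31, -0.58, -0.40 and 0.84 on the log2 scale in tumours 1 to 4, against 0.15, 0.22, -0.21 and -0.13 for interferon-stimulated genes. Red cell and platelet markers summed to 41.1, 25.8, 32.8 and 79.8 CPM in the same tumours, highest in tumours 1 and 4, and their part in the neutrophil values was not tested.

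**Figure D3:**
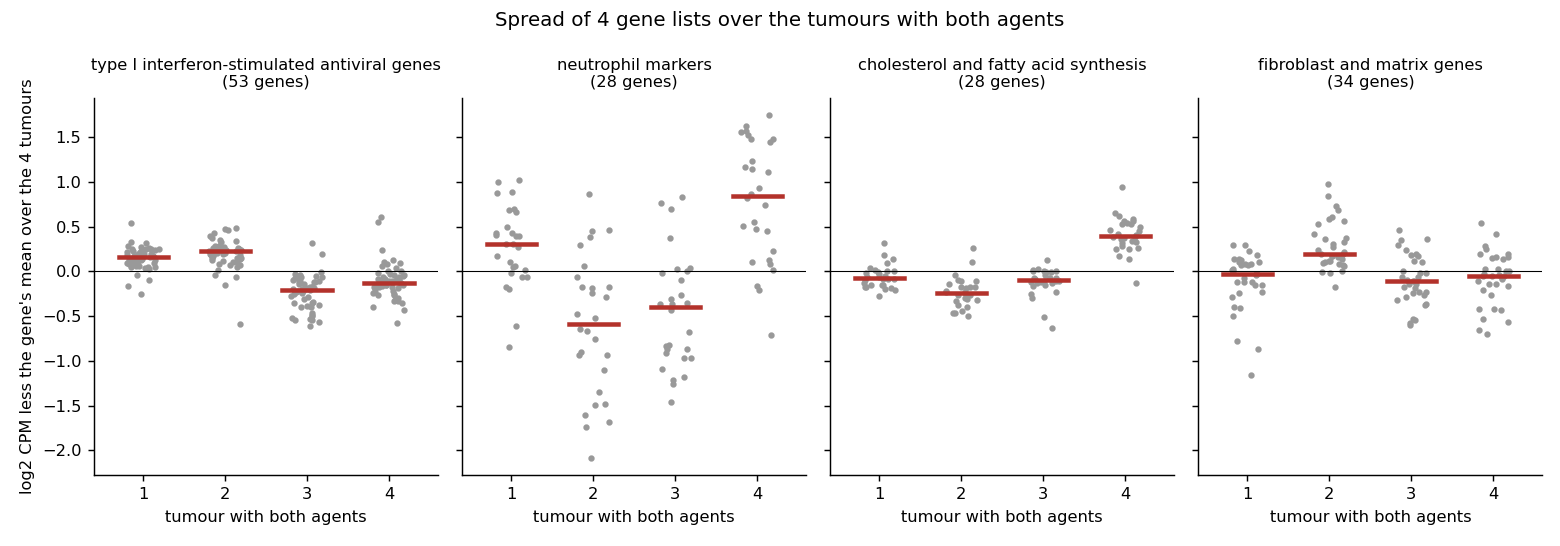
Log2 CPM of the members of 4 gene lists in each tumour given both agents, less the gene's mean over the 4 tumours; grey points are genes with reads in all 4 tumours and red bars their medians. Neutrophil markers sit above 0 in tumours 1 and 4 and below 0 in tumours 2 and 3, whereas the medians of the interferon-stimulated genes stay between -0.21 and 0.22.

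Markers of inflammatory monocytes rose in part. Of 20 measured, 9 were called higher and none lower (median 1.01). Ly6c2, the surface antigen of inflammatory monocytes, stood at 16.4, 16.9 and 14.8 CPM and 112, 118, 79.7 and 90.5 CPM (2.63 ± 0.32, adjusted p = 0.000286). Plac8 stood at 19.8, 24.6 and 10.8 CPM and 102, 122, 74.2 and 79.1 CPM (2.41 ± 0.31). Ccr2, the receptor that brings monocytes out of the marrow, was not called and had a negative value, with 149.7, 129.6 and 217 CPM and 48.9, 91.4, 107 and 89.1 CPM (-0.9995 ± 0.33, adjusted p = 0.168). Of 27 phagocyte receptors, 9 were called higher and none lower (median 0.66). Clec4e, the lectin Mincle that reads dying cells and mycobacterial lipid, stood at 4.70, 6.78 and 1.54 CPM and 123, 135, 54.5 and 107 CPM (4.74 ± 0.57, adjusted p = 0.000256). Clec4d, its partner, changed by 3.76 ± 0.53. The formyl peptide receptor Fpr1 stood at 0.641, 1.33 and 0.0593 CPM and 22.1, 16.4, 8.19 and 11.4 CPM (4.97 ± 0.66). Fpr2 stood at 2.06, 3.15 and 0.356 CPM and 41.7, 35.1, 19.5 and 27.8 CPM (4.45 ± 0.51). For Ly6c2, Plac8, Clec4e, Fpr1 and Fpr2, tumour 3 was the lowest treated tumour and vehicle 3 the lowest vehicle tumour.

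Enzymes of activated macrophages followed. Of 24 listed, 7 were called higher and none lower (median 0.60). Acod1, which makes itaconate, stood at 29.1, 44.7 and 9.13 CPM and 279, 367, 208 and 238 CPM (3.55 ± 0.46, adjusted p = 0.000436). Gch1, which makes the cofactor of nitric oxide synthase, changed by 1.09 ± 0.19. Nos2, the inducible nitric oxide synthase, stood at 71.9, 72.2 and 15.5 CPM and 302, 297, 192 and 329.6 CPM (2.67 ± 0.57, adjusted p = 0.0181), a call lost in 4 of the 15 refits, with an adjusted p of 0.113 without vehicle 3. Arg1, which competes with it for arginine, was not called, with 244, 356 and 601 CPM and 397, 447, 464 and 487 CPM (0.26 ± 0.27, adjusted p = 0.877). Htra4, a secreted serine protease, had one of the smallest adjusted p-values (8.25e-05), with 0.712, 1.76 and 0.474 CPM and 26.9, 25.9, 15.6 and 23.3 CPM (4.68 ± 0.39). Gpr84, a receptor for medium-chain fatty acids on myeloid cells, changed by 2.06 ± 0.32. Spic, a factor of iron-recycling macrophages, stood at 0.142, 0.303 and 0.119 CPM and 3.94, 3.99, 2.19 and 2.48 CPM (3.90 ± 0.53). Tumour 3 was again the lowest treated tumour for Acod1, Nos2, Htra4 and Spic, and vehicle 3 the lowest vehicle tumour.

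Genes of secreted defence proteins were raised in part. Of 19 acute phase and defence genes, 7 were called higher and none lower (median 1.85). The 7 include Lcn2, which the neutrophil list also holds. Saa3, a serum amyloid A protein made outside the liver, stood at 11.03, 9.20 and 4.92 CPM and 171, 215, 131 and 67.1 CPM (4.07 ± 0.45, adjusted p = 0.000166). Ptx3, a pentraxin of stromal and myeloid cells, stood at 0.498, 1.09 and 0.830 CPM and 21.1, 35.7, 25.1 and 9.99 CPM (4.71 ± 0.51). Serpinb2, the plasminogen activator inhibitor PAI-2, went from 0.925, 0.545 and 0.652 CPM to 13.04, 34.9, 22.5 and 51.9 CPM (5.23 ± 0.83), and its adjusted p under limma-voom was 0.181. Cp, the copper-carrying ferroxidase, changed by 1.27 ± 0.25. Treated tumour 4 was the lowest of the 4 for Saa3 and Ptx3 and the highest for Serpinb2. Saa1, another serum amyloid A gene, had no read in vehicle tumours and 1.31, 1.11, 0.366 and 0.207 CPM with both agents. Its treated mean was 11.8 times the floor of 3 reads, a ratio that leaves out the spread between tumours. The ferritin heavy chain Fth1, which stores iron, stood at 2080.1, 2346 and 2027 CPM and 7149.9, 5048, 3331 and 4942 CPM (1.20 ± 0.20, adjusted p = 0.00265), with reads that processed copies of the gene may share. Mmp3, the metalloproteinase stromelysin, stood at 18.6, 21.1 and 14.2 CPM and 129, 110.0, 56.8 and 111 CPM (2.45 ± 0.40), and Timp1, which inhibits metalloproteinases, changed by 1.29 ± 0.23.

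Of 25 genes of necroptosis, pyroptosis and the inflammasome, 6 were called higher and none lower (median 0.44). Casp4, the caspase that reads cytosolic lipopolysaccharide, stood at 39.1, 47.6 and 36.8 CPM and 85.8, 92.3, 66.5 and 71.6 CPM (0.94 ± 0.13, adjusted p = 0.000584). Mlkl, the executioner of necroptosis, stood at 87.4, 103 and 69.3 CPM and 148, 135, 132 and 120.5 CPM (0.64 ± 0.12), and Ninj1, which ruptures the plasma membrane of dying cells, changed by 0.97 ± 0.15. Cdkn1a, the cell cycle inhibitor p21, stood at 71.7, 64.9 and 68.6 CPM and 135, 134, 135 and 123 CPM (0.95 ± 0.14, adjusted p = 0.00110). It was the only called member of 32 cell cycle genes, of which 31 had a negative value (median -0.25). The proliferation marker Mki67 was not called, with 351, 347 and 282 CPM and 215, 229.9, 292 and 290.4 CPM (-0.35 ± 0.18, adjusted p = 0.514). Of 30 genes of apoptosis and the BCL2 family 2 were called higher (median 0.14; 0 to 6 with 1 library left out), and of 24 genes of the integrated stress and unfolded protein responses 2 (median 0.17; 0 to 3). Ier3 and Klf6, early response genes, changed by 1.47 ± 0.23 and 0.71 ± 0.12.

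Genes of antigen presentation divided by class. All 27 genes of MHC class I and peptide loading had a positive value (median 0.55), and 7 were called higher, a count that was 1 without vehicle 3, 2 without any one of vehicle 1, treated tumour 1 and treated tumour 4, 3 without treated tumour 2, 4 without BO-112 3 and 13 without DMXAA 2. H2-T22, a nonclassical class I molecule, stood at 247, 283 and 165 CPM and 523, 487, 403 and 425 CPM (1.02 ± 0.18, adjusted p = 0.00414). Of 16 class II genes, 13 had a negative value (median -1.02), and 1 was called lower (the count was 3 without DMXAA 2 and 4 without DMXAA 4). That gene was Ciita, the master activator of class II transcription, with 55.5, 56.2 and 48.2 CPM and 3.16, 19.3, 9.36 and 13.98 CPM (-2.48 ± 0.49, adjusted p = 0.00956). Treated tumour 1 was the lowest of the 4, and the ranges lay apart. The call was lost when the 4 libraries with over 50 CPM of Acta1 were left out (adjusted p = 0.0929) and in a fit to the 2 groups alone. H2-DMb1, a peptide-loading chaperone of class II, had 83.1, 103 and 104 CPM and 19.7, 46.2, 37.1 and 39.7 CPM (-1.50 ± 0.41, adjusted p = 0.0751). Cd274, the checkpoint ligand PD-L1, stood at 63.8, 91.8 and 34.8 CPM and 179.9, 202, 122 and 208 CPM (1.57 ± 0.38, adjusted p = 0.0383), a call lost in 9 of the 15 refits, with an adjusted p of 0.241 without vehicle 3. Lgals9, a ligand of the checkpoint receptor TIM-3, changed by 0.84 ± 0.13 (adjusted p = 0.00158).

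Resident macrophage markers made up 4 of the 32 lower genes. Of the 36 genes of that list, 4 were called lower and 1 higher. The median was -0.14, so the list as a whole lay near the median of all genes. The higher gene was Nos2, the enzyme of activated macrophages given above, which the list also held and which is not a resident marker. The count of lower members was 1 without vehicle 3 and 2 without treated tumour 1. Cd163, a haemoglobin scavenger receptor, stood at 2.35, 3.15 and 9.07 CPM and 0.154, 0.368, 0.804 and 0.551 CPM (-3.22 ± 0.62, adjusted p = 0.00901), a call lost without vehicle 3 (adjusted p = 0.0800), the vehicle tumour in which it was highest. Cd209g, a lectin of the DC-SIGN family, had 53 reads over the vehicle tumours and 1 over the treated ones. At equal library size the ratio of vehicle to treated was 64.2 (95% exact counting interval 11.03 to 2583). This interval pools the reads of each group and leaves out the spread between tumours. The log2 fold change from limma was -4.39 (adjusted p = 0.00134). Cd209f, of the same family, stood at 0.498, 2.85 and 1.96 CPM and 0.154, 0.123, 0.219 and 0.0689 CPM (-3.12 ± 0.73, adjusted p = 0.0310), a call lost in 5 of the 15 refits, with an adjusted p of 0.160 without vehicle 3. Selenop, a secreted selenium carrier, stood at 106, 119 and 195 CPM and 37.5, 69.7, 56.4 and 71.98 CPM (-1.24 ± 0.28, adjusted p = 0.0236), a call lost in 2 of the 15 refits, with an adjusted p of 0.161 without vehicle 3. Of the general macrophage markers, Adgre1 and C1qa are given, both named after their values were seen, and neither was called. Other general markers are not given here. Adgre1, the antigen F4/80, had 154, 191 and 194 CPM and 133, 175, 179 and 162 CPM (-0.15 ± 0.14), and C1qa, a complement subunit of macrophages, 601, 776 and 729 CPM and 768, 934, 769.8 and 827 CPM (0.24 ± 0.31), with adjusted p-values of 0.842 and 0.933.

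Among the other lower genes, Chp2, a calcium-binding partner of sodium and proton exchangers, had the largest change outside that list, with 0.641, 0.666 and 1.96 CPM and 0.154, 0.0614, 0 and 0.0689 CPM (-3.43 ± 0.78, adjusted p = 0.0271), a call lost in 6 of the 15 refits, with an adjusted p of 0.181 without vehicle 3. Rab3il1, an exchange factor for Rab proteins, stood at 58.1, 66.7 and 83.4 CPM and 24.7, 33.6, 35.2 and 38.3 CPM (-1.08 ± 0.17, adjusted p = 0.00169). Nxpe5 stood at 8.83, 10.2 and 15.8 CPM and 1.85, 2.58, 3.07 and 3.24 CPM (-2.08 ± 0.27, adjusted p = 0.000445). Trim36, a ubiquitin ligase, stood at 6.55, 6.96 and 6.76 CPM and 2.78, 3.32, 3.80 and 3.58 CPM (-1.005 ± 0.16, adjusted p = 0.00221). The calls of these 3 genes held in every refit. Abca9, a lipid transporter, was the 1 called member of 34 fibroblast and matrix genes, with 16.1, 10.8 and 18.9 CPM and 2.47, 4.42, 4.75 and 6.13 CPM (-1.81 ± 0.33), and its call was lost without vehicle 3 (adjusted p = 0.0532). Rnase6, an antimicrobial ribonuclease, changed by -1.58 ± 0.34 (adjusted p = 0.0199), and its call was lost in 5 of the 15 refits, with an adjusted p of 0.110 without vehicle 3. Scd2 and Dhcr7, enzymes of fatty acid desaturation and of cholesterol synthesis, changed by -0.80 ± 0.19 and -0.59 ± 0.12, with a highest adjusted p over the refits of 0.160 and 0.0537. They were the called members of 28 genes of lipid synthesis, of which 26 had a negative value (median -0.48), and the count was 0 without vehicle 1 or vehicle 3, 1 without any one of treated tumour 1, treated tumour 2 and treated tumour 3 and 5 without treated tumour 4.

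**Figure D4:**
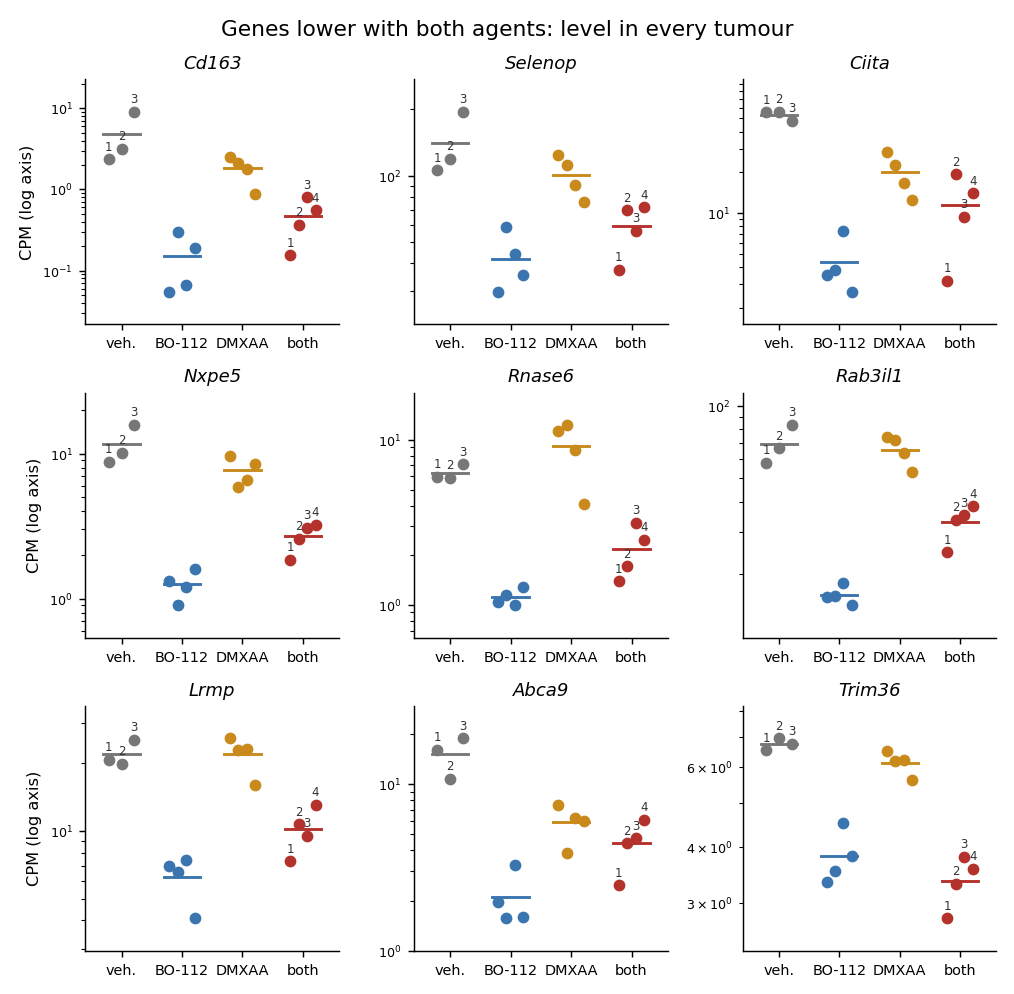
Level of 9 lowered genes in each of the 15 tumours, in CPM on log axes, by group, with bars at the group means and tumour numbers beside vehicle and both-agent points. The 4 tumours given both agents lie below the 3 vehicle tumours for each gene shown, and tumour 1 is the lowest of the 4 in each.

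Most lymphocyte and stromal markers were not called. Of T cell markers 4% and of endothelial markers 3.70% were called higher, near the 2.49% of all genes. The shares were larger for 29 cytotoxic and NK cell genes (3 called, 10.3%), 12 B and plasma cell markers (1, 8.33%) and 17 endothelial adhesion genes (3, 17.6%). With 1 library left out these counts ran from 2 to 6, 0 to 2 and 0 to 3. The called B cell marker was Pax5 (adjusted p = 0.0104), a call lost in 2 of the 15 refits. Of 25 T cell markers, 1 was called, Il7r, the receptor for interleukin 7, which rose by 1.88 ± 0.44 (adjusted p = 0.0317), a call lost in 6 of the 15 refits, with an adjusted p of 0.191 without vehicle 3. Cd3e, a subunit of the T cell receptor complex, had 7.62, 7.32 and 3.91 CPM and 4.86, 5.77, 3.51 and 6.47 CPM, and Cd8a, the coreceptor of cytotoxic T cells, 8.97, 17.6 and 2.37 CPM and 6.33, 7.55, 6.58 and 13.98 CPM, groups that overlapped for both genes. Gzmb, a protease of cytotoxic granules, was not called, with 32.1, 55.7 and 9.96 CPM and 56.6, 89.1, 53.95 and 69.8 CPM (1.34 ± 0.41, adjusted p = 0.124). It was called without vehicle 2 (adjusted p = 0.0122). The endothelial adhesion molecule Pecam1 had 62.2, 70.5 and 60.3 CPM and 63.7, 77.7, 55.1 and 77.6 CPM (0.08 ± 0.18, 95% interval -0.30 to 0.46). Kdr, the receptor VEGFR2, was the 1 called member of 27 endothelial markers, with 22.6, 23.97 and 16.1 CPM and 64.8, 57.5, 31.3 and 53.9 CPM (1.28 ± 0.29, adjusted p = 0.0271), a call lost in 5 of the 15 refits, with an adjusted p of 0.166 without vehicle 3. Vcam1, an adhesion molecule for leukocytes, stood at 302, 306 and 252 CPM and 542, 581, 535 and 409 CPM (0.84 ± 0.17), a call lost without vehicle 3 (adjusted p = 0.0841). Decorin, encoded by Dcn and made by fibroblasts, was not called (0.71 ± 0.21, adjusted p = 0.101). None of 32 genes of oxidative phosphorylation (median -0.12) and none of 23 muscle markers was called. All 23 muscle markers had a negative value (median -1.87). The median was -0.54 without vehicle 2, which held the raised level of Acta1 given above, and -2.95 without vehicle 1.

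Interferon-inducible GTPases and dendritic cell markers held 1 call each, 5.26% of each list, against 2.49% of all genes called higher. Of 19 interferon-inducible GTPases, which attack vacuoles of intracellular microbes, 17 had a positive value (median 0.79), and 1 was called, a count that was 0 without treated tumour 1 or 2, 2 without DMXAA 2 and 6 without vehicle 2. The called gene was Gbp3, with 195, 279.8 and 85.2 CPM and 433, 438, 377 and 329 CPM (1.23 ± 0.27, adjusted p = 0.0211; lost in 2 of the 15 refits, with an adjusted p of 0.0764 without treated tumour 1). Gbp5, a relative, had 123, 144 and 45.2 CPM and 226, 252, 172 and 183 CPM and was not called (1.15 ± 0.32, adjusted p = 0.0818). Vehicle 3 was the lowest vehicle tumour for 19 of the 19. Of 19 dendritic cell markers, 1 was called, Ccr7, the receptor that leads mature dendritic cells to lymph nodes, with 12.2, 7.20 and 12.9 CPM and 43.1, 29.7, 15.8 and 26.2 CPM (1.37 ± 0.32, adjusted p = 0.0331), a call lost in 6 of the 15 refits, with an adjusted p of 0.157 without vehicle 2.

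Lists of prostaglandin, complement and iron genes held calls as well. The shares called higher were 4.35%, 12% and 33.3%, against 2.49% of all genes, so the first lay near that share. Of 23 genes of prostaglandin synthesis 1 was called higher and 1 lower. With 1 library left out each of these counts ran from 0 to 2, and both were 0 without vehicle 1. Of 25 complement genes 3 were called higher (0 to 6 with 1 library left out, 0 without vehicle 3). Of 18 genes of iron handling and metallothioneins 6 were called higher (3 to 9), Lcn2 of the neutrophil list among them. Ptgs2, the inducible cyclooxygenase, stood at 31.96, 42.1 and 24.8 CPM and 94.4, 72.1, 65.8 and 109 CPM (1.38 ± 0.30, adjusted p = 0.0203; lost in 4 of the 15 refits, with an adjusted p of 0.139 without vehicle 3). Tbxas1, which makes thromboxane, was the called member of the same list in the other direction, with 39.6, 42.3 and 54.6 CPM and 18.4, 23.9, 28.2 and 27.8 CPM (-0.89 ± 0.20, adjusted p = 0.0271; lost in 5 of the 15 refits, with an adjusted p of 0.173 without vehicle 3). Il27, which encodes a subunit of interleukin 27, stood at 1.92, 3.21 and 0.593 CPM and 5.79, 6.38, 4.82 and 4.61 CPM (1.77 ± 0.43, adjusted p = 0.0366; lost in 9 of the 15 refits, with an adjusted p of 0.159 without vehicle 3). Hmox1, the haem-degrading oxygenase, stood at 118, 85.4 and 120.4 CPM and 542, 293, 226 and 319.5 CPM (1.61 ± 0.40, adjusted p = 0.0429; lost in 10 of the 15 refits, with an adjusted p of 0.160 without vehicle 2). C5ar1, the receptor for the complement fragment C5a, stood at 54.9, 62.8 and 36.9 CPM and 90.8, 72.6, 88.1 and 84.7 CPM (0.74 ± 0.17, adjusted p = 0.0252; lost in 5 of the 15 refits, with an adjusted p of 0.153 without vehicle 3).

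**Figure D5:**
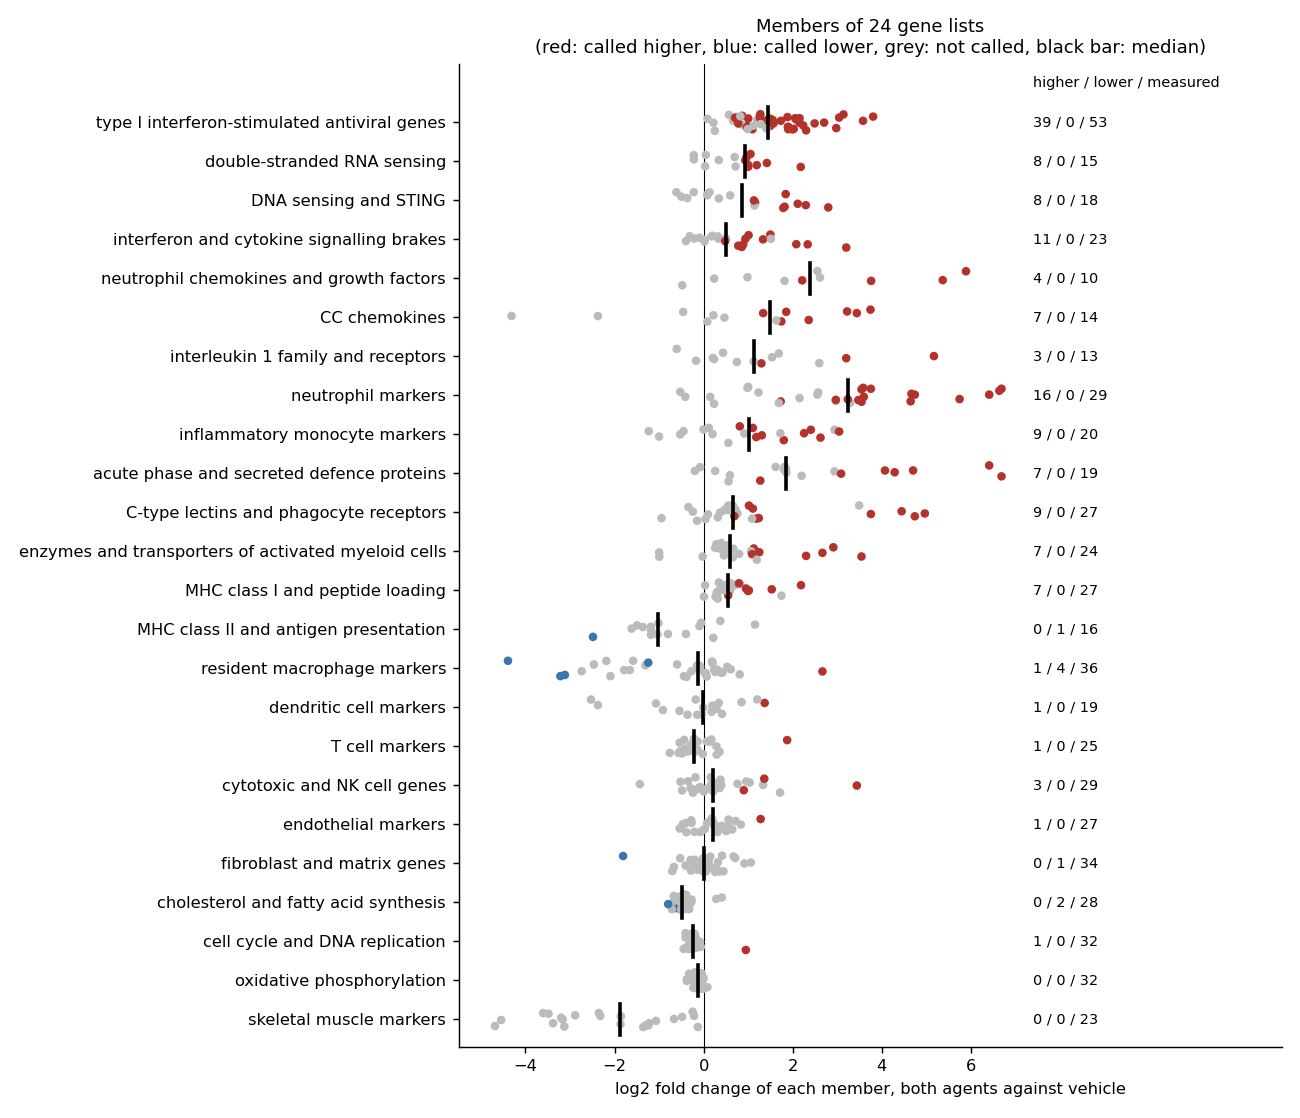
Log2 fold change of each measured member of 24 gene lists between tumours given both agents and vehicle, with the list's median as a black bar and the numbers called higher, called lower and measured at the right. The medians of the interferon, chemokine, neutrophil and monocyte lists lie to the right of 0, those of class II genes and muscle markers to the left, and those of T cell, endothelial and matrix lists near 0.

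The level with both agents was then placed against each agent alone. Over all genes the mean with both agents lay between the means of BO-112 and DMXAA for 59.7%, above both for 20.2% and below both for 20.1%. Of the 441 higher genes, 371 (84.1%) lay between, 34 above both and 36 below both, and of the 32 lower genes, 28 lay between. In 359 of the 371 the mean with BO-112 alone was the higher of the 2 references. No gene was called between both agents and BO-112 in either direction by limma (0.0% of genes, 1690 at an unadjusted p under 0.05). Between both agents and DMXAA 127 genes were called higher (0.717%) and 30 lower (0.169%). These comparisons share tumours with the main one, and the second count was fragile: it was 0 without treated tumour 1 or without treated tumour 2, 5 without DMXAA 3, 47 without treated tumour 4, 71 to 90 without any 1 library of BO-112, 96 without vehicle 1, 1504 without DMXAA 4 and 1765 without DMXAA 1. Without the libraries over 50 CPM of Acta1, DMXAA 1 and DMXAA 3 among them, 1 gene was called against DMXAA. Against BO-112, a fit to BO-112 and both agents alone called 51 genes higher and 311 lower, and limma-voom called 0.

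Single genes show the order of the means. None of the calls against DMXAA held without treated tumour 1 or without treated tumour 2. Ifnb1 had 7.20 ± 2.58 CPM (SD, n = 4) with BO-112, 0.330 ± 0.192 CPM (SD, n = 4) with DMXAA and 1.68 ± 0.453 CPM (SD, n = 4) with both, a difference from BO-112 of -2.05 ± 0.39 (adjusted p = 0.117) and from DMXAA of 2.36 ± 0.39 (adjusted p = 0.0149). Isg15 had 563 ± 65.1, 194 ± 46.5 and 305 ± 63.2 CPM in the same order. Clec4e had 306 ± 24.6 CPM with BO-112, 18.5 ± 12.7 CPM with DMXAA and 105 ± 35.5 CPM with both, and differed from DMXAA by 2.76 ± 0.52 (adjusted p = 0.0301). Acod1 and Il12b differed from DMXAA by 2.72 ± 0.43 and 2.51 ± 0.33 (adjusted p = 0.0145 and 0.00868). Lcn2 showed another order, with 21.6 ± 24.98, 19.8 ± 14.7 and 29.7 ± 7.45 CPM, and S100a9 had 12.5 ± 4.87, 22.04 ± 19.2 and 37.1 ± 30.8 CPM, so that the mean with both agents was the highest of the 3 for these 2 genes, although single tumours given DMXAA exceeded it. For Lcn2 the highest tumour of all was BO-112 2, at 58.96 CPM, and the other tumours given BO-112 had 5.99 to 11.6 CPM. Ly6c2 was lowest with both agents, with 189.8 ± 37.2, 151 ± 96.00 and 100.2 ± 18.1 CPM. Among lower genes the order of the means was reversed: Cd163 had 0.153 ± 0.116, 1.83 ± 0.704 and 0.469 ± 0.276 CPM, and Ciita 4.31 ± 2.07, 20.02 ± 6.82 and 11.5 ± 6.87 CPM. Rab3il1 had 16.4 ± 1.42, 65.8 ± 9.69 and 32.95 ± 5.83 CPM and differed from DMXAA by -1.003 ± 0.15 (adjusted p = 0.0128).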

How the data were processed

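RNA from 15 MC38 tumours was sequenced as stranded, poly-A selected paired-end libraries, per the labels' protocols. The submitters' processing notes name STAR, edgeR, limma and the mm39 build. The deposited values are log2 CPM of 17712 genes, to which 0.5 reads had been added before the log, as the recovered reads show. Undoing the log and the library scaling gave whole reads for 100.0% of values (tolerance 1e-06). A second deposited table of raw counts was not used, because the names of its 15 per-sample columns match no sample.

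Groups came from the treatment labels. limma 3.58.1 in R 4.3.3 (lmFit, then eBayes with trend and robust options) was fitted to the log2 values of all 15 libraries with 4 group means and no covariate. Tests were two-sided, with Benjamini-Hochberg adjustment over all genes and a threshold of 0.05. The steps were tested on simulated data. Scaling factors lay between 0.850 and 1.08. CPM values are recovered reads over scaled library sizes, and intervals from reads cover counting error only. Sources do not say whether mice shared a cage or a day. The p-values weigh a group difference against the spread between tumours within groups, estimated over all 4 groups.

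Symbols were matched by Ensembl identifier in GENCODE M21 (17636 of 17712), and promoter windows by symbol to RefSeq (GRCm38.p6), whose coordinates are not those of mm39. Named genes were the 20 largest called changes in each direction with at least 1 CPM, the 15 smallest adjusted p-values, up to 4 members of each gene list by adjusted p, called genes with the largest differences from either single agent or the widest spread over treated tumours, and a panel of 27 genes. Outside this rule, and after their values were seen, the text names Ifih1, Ddx58, Hmox1, Saa1, Ly6g, Gm5483, Cxcr2, Csf3r, Adgre1, C1qa, Ccr2, Cd3e, Krt19, Ccl24 and Ccl17. The members and all gene lists were chosen with earlier results of these data known. Alternatives covered scaling, the added reads, a low-value filter, limma-voom, the robust option, array weights, the groups entering the fit, a replicate block, muscle-rich libraries and each library left out.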

Additional observations from a re-analysis of the deposited data

Results flagged for a closer look

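Among tumours given both agents, 7 of 174 genes tested had 1 tumour apart from the others, by a gap to its neighbour beyond Dixon's 95% limit for 4 values. Chance alone flags about 1 in 20 groups of this kind. Il6, the acute phase cytokine, had 3.86 CPM in tumour 4 against 3.07 to 3.19 CPM in the others. Cd8a, the coreceptor of cytotoxic T cells, had 13.98 CPM in tumour 4 against 6.33 to 7.55 CPM. Acta1, the muscle actin, had 2.20 CPM in tumour 4 against 0.232 to 0.439 CPM. Cdkn1a, the cell cycle inhibitor p21, was lowest in tumour 4, with 123 CPM against 134.5 to 135 CPM. Cd209g, a lectin of the DC-SIGN family, had its 1 read in tumour 4, at 0.0689 CPM, and 0 CPM in the others. Ptpn7, a phosphatase of blood cells, was lowest in tumour 1, with 10.3 CPM against 18.1 to 18.4 CPM. Ccl17, a ligand of CCR4, was highest in tumour 2, with 3.50 CPM against 0.386 to 0.689 CPM. The tumour set apart was tumour 4 for all but Ptpn7 and Ccl17.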

How the results depend on the processing

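Between both agents and vehicle, 473 genes were called, 441 higher and 32 lower. The count lay between 350 and 476 under 8 of the 10 changes of method, where it moved by less than 1.5 times. Array quality weights called 1403 genes (1080 higher, 323 lower; DMXAA 2 received a weight of 0.0850), a fit to the 2 groups alone called 748 (107 lower), and leaving out the libraries over 50 CPM of Acta1 left 9 lower genes. With 1 library left out the count ran from 246 to 768, with 238 to 675 higher and 8 to 93 lower. Between both agents and BO-112 no gene was called as reported, 3 with total-count scaling (all 3 higher), 313 with array weights (111 higher, 202 lower) and 362 in a fit to the 2 groups alone (51 higher, 311 lower). With 1 library left out it was 0 to 32, with 0 to 9 higher and 0 to 23 lower. Total-count scaling moved the median of all genes in this comparison to 0.10 on the log2 scale, from 0.01. Between both agents and DMXAA, of 157 genes (127 higher, 30 lower), the 2-group fit called 4 (3 higher, 1 lower) and the fit without libraries over 50 CPM of Acta1 called 1 higher and 0 lower. With 1 library left out the count ran from 0 to 1765, with 0 to 979 higher and 0 to 786 lower. Fewer libraries entered the fits that leave libraries out; for the other changes the cause was not tested. Of 139 named calls, 67 held under every setting and 81 with each of the 15 libraries left out; 52 were lost without vehicle 3, 37 without the libraries over 50 CPM of Acta1 (Cp and Gch1 among them) and 27 under limma-voom. None of these calls changed direction. Among named genes that were not called, Ifng had -0.42 with array weights and -1.24 to 1.19 with 1 library left out, Cxcl9 -0.40 to 1.25, Cd8a -0.12 with array weights and -0.62 to 0.81, and Arg1 -0.047 to 0.60. With the replicate number as a block, 471 genes were called (449 higher, 22 lower), of which 407 were called without it. The labels do not pair tumours: deviations from the group means correlated between vehicle and treated tumours of the same number at a mean of 0.0061 (-0.0723 to 0.0953, n = 3), against -0.002 (n = 9) for other numbers. Motif shares in genes called higher at any fold were 21.6% for the interferon core, 9.43% for the NF-kB core and 9.43% for the gamma-activated site core. Depth limits genes under about 1 CPM, where a value rests on few reads.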
